A study of Macaca mulatta with 95 samples.

Results

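Trophectoderm cells of late and hatched rhesus macaque blastocysts were compared gene by gene, as 5 late and 8 hatched single cells out of 95 sequenced cells. Members were inner cells of title letter G, and they were chosen by their level of GATA2, a transcription factor of the trophoblast, at 50 RPKM or more (reads per kilobase of gene per megaread). GATA2 lay between 349.3 and 936.2 RPKM in the late members and between 140.2 and 734.7 RPKM in the hatched members. The lowest member, hatched 15, had 140.2 RPKM. Of the cells outside the threshold, late 20 had 21.0 RPKM and hatched 14 had 5.83 RPKM, and the other 9 late cells of the letter were at or under 0.450 RPKM. Since GATA2 made the selection, its levels are given as a description only.

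The series holds single cells of monkey embryos fertilised and cultured in the laboratory, from the 16-cell stage to the hatched blastocyst, each cell sequenced as a library of its own. The late cells (numbers 3, 4, 16, 22 and 27 in their titles) belong by title and stage label to late blastocysts, collected at about day 6 with a fully expanded cavity. The hatched cells (numbers 2, 5, 6, 10, 11, 15, 16 and 20) belong to blastocysts out of the zona pellucida, collected at about day 7. The 5 late cells carry a source name of hatched blastocyst, against their own title and stage label, and if the source name were right the comparison would not be between stages. No treatment or genotype is named for either group, and both are called inner in the labels because a membrane dye that marks the outside of the embryo did not stain them. No label names an embryo, an animal or the meaning of the title letters. Each stage therefore counts as 1 sample, no test was made, every SD is the spread from cell to cell, and stage, embryo, collection and library handling cannot be told apart.

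The trophectoderm is the outer epithelium of the blastocyst. It pumps fluid to form the cavity, frees the embryo from its zona, attaches to the uterus and gives rise to the placenta. Its cells are known for the factors GATA2, GATA3 and TFAP2C, for simple epithelial keratins, tight junction claudins and steroid-making enzymes, while the inner cell mass keeps POU5F1, NANOG and SOX2.

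The late cells yielded far fewer genes than the hatched cells. Genes at 1 RPKM or more numbered 4423 in late 3, 2958 in late 4, 3155 in late 16, 4761 in late 22 and 3150 in late 27. In the hatched cells they numbered 5152 at the lowest, 6225 at the median and 6595 at the highest, so that the groups did not overlap. Reads recovered from the steps of the values ran from 5.67 to 9.89 megareads per late cell and from 8.25 to 11.8 megareads per hatched cell. After each cell was thinned to 5.6 megareads, 2965 to 4939 genes had 5 or more reads in the late cells and 5173 to 6630 in the hatched cells, without overlap. The 50 highest genes of a cell held 43.4% to 50.0% of the summed RPKM in late cells and 27.3% to 39.5% in hatched cells. The 10 other late cells of letter G had 3566 to 5021 genes at 1 RPKM or more. The 9 hatched cells of letter H had 4552 to 6859. The number of genes detected moves with the stage in every comparison that follows, and its part in them was not tested.

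**Figure D1:**
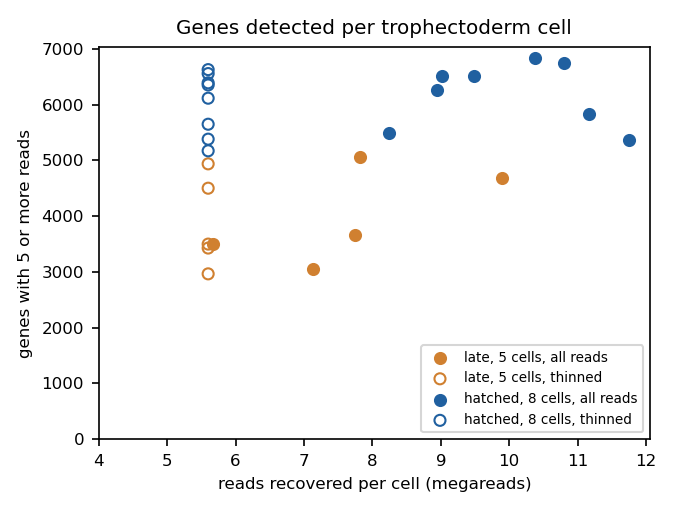
Genes with 5 or more reads in each of the 5 late and 8 hatched trophectoderm cells, against the reads recovered from the deposited values. Filled points use all recovered reads and open points use reads thinned to 5.6 megareads per cell; the late cells lie at 2965 to 4939 genes and the hatched cells at 5173 to 6630 after thinning.

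Differences below are log2 ratios of the group means after adding 1 RPKM to each, positive where hatched cells were higher, which understates the change of low genes. Genes were taken as measured when either group averaged at least 5 RPKM, and as higher or lower from 2-fold. A gene near 0 in 1 group was thus measured only through the other, which fixed the direction of its call. This holds for the lists and for all measured genes alike. Of 6842 measured genes, 2436 (35.6%) were higher and 1179 (17.2%) were lower in hatched cells, with a median difference of 0.39. When the cells were rescaled by median-of-ratios size factors, that median moved to -0.28 and the split turned over, with 1560 higher and 1991 lower genes. Among the 1922 genes at 1 RPKM or more in at least 4 late and 6 hatched cells, 232 were higher and 311 lower, at a median difference of -0.06, but this limit leaves out by construction the genes that are near 0 in late cells.

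A stricter count took genes past 2-fold whose cells did not overlap. Every hatched cell lay above every late cell for 194 genes (2.84%), and below every late cell for 24 genes (0.351%). Of the 194, 90 stayed under 1 RPKM in all 5 late cells, and 19 of them were listed at 0 in all 5. The other 10 late cells of the letter carried many of these genes, since 34 of the 90 were at 1 RPKM or more in at least 5 of those 10 cells and 4 of the 90 stayed under 1 RPKM in all of them. Of the 24 lower genes, 17 had a late mean of 100 RPKM or more. Leaving out late 22 raised the count of higher genes without overlap to 369, and leaving out late 3 raised it to 339. Without late 4, the lower genes without overlap numbered 51, and without late 16 they numbered 41. With only the hatched cells no deeper than the deepest late cell, hatched 2, 10, 11 and 15, 440 higher and 39 lower genes did not overlap. Fewer cells change these counts by construction, so the rise does not bear on the part of depth.

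**Figure D2:**
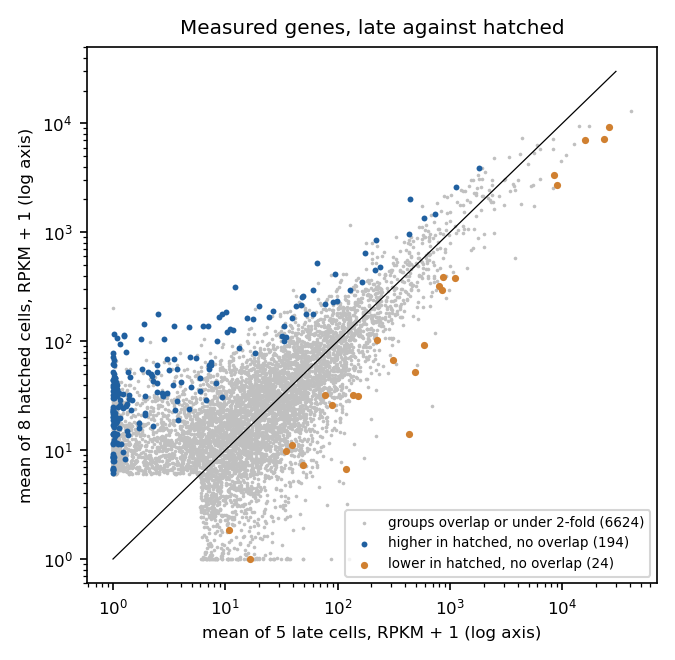
Mean RPKM + 1 of the 8 hatched cells against that of the 5 late cells for the 6842 measured genes, both on log axes, with the line of equality. Blue points are the 194 genes higher without overlap, many of them at the floor of the late axis, and orange points are the 24 genes lower without overlap, most of them at high late levels.

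The trophectoderm label was checked against markers other than GATA2. Of 14 such markers, 8 to 13 were at 10 RPKM or more in each late member and 10 to 13 in each hatched member, against 2 to 6 in the 10 other late cells of the letter. GATA3, the partner factor of GATA2, was at 101, 188, 304, 424 and 286 RPKM in late 3, 4, 16, 22 and 27. In hatched cells GATA3 was at 148, 452 and 618 RPKM (lowest, median and highest), and the groups overlapped (260 ± 122 RPKM in late and 410 ± 179 RPKM in hatched cells, mean ± SD over cells). The 10 other late cells had a median of 0.0744 RPKM of GATA3. TFAP2C, which also marks germ cells and naive pluripotent cells, was at 77.6, 0.274, 65.4, 38.2 and 166 RPKM in the late cells and at 38.8 to 244 RPKM in the hatched cells. TFAP2A, its relative, was at 2.03 to 92.1 RPKM in late cells and at 0 to 62.1 RPKM in hatched cells. CDX2, which founds the trophectoderm in the mouse, was low in most members, at 14.5 RPKM in late 3, at 9.43 RPKM in hatched 2 and under 2 RPKM in the other 11. The factors GATA3, TFAP2C and TFAP2A were under 2-fold apart, at 0.65, 0.75 and -0.58. CDX2, at means of 3.34 RPKM in late and 1.20 RPKM in hatched cells, was too low to count as measured. Its difference was -0.98 with 1 RPKM added, while the plain ratio of hatched to late means was 0.36. TFAP2C stood at 1.36 without late 27, and CDX2 at -2.09 without hatched 2 and 0.51 without late 3.

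Genes of the other lineages were mostly absent from the members. Of 21 epiblast markers in the table, 13 were under 1 RPKM in all 13 members, among them SOX2, NODAL and PRDM14. NANOG, a core pluripotency factor, was at most 1.44 RPKM in a member, against a median of 272 RPKM in the 10 other late cells. Of 21 hypoblast markers, 13 were under 1 RPKM in all members, among them GATA4, SOX17, PDGFRA and FOXA2. The factors HHEX and HNF4A on that list reached 23.2 and 9.88 RPKM in the highest member. Some extracellular and membrane proteins on the hypoblast list were nevertheless present in both groups. LAMA1, a laminin chain, was at 2.67 to 44.2 RPKM in late cells and at 14.2 to 55.7 RPKM in hatched cells, and LRP2, an endocytic receptor, at 11.5 to 112 RPKM and 42.0 to 161 RPKM. COL4A2, a basement membrane collagen, was at 18.2 to 138 RPKM in late cells and at 0.0221 to 102 RPKM in hatched cells. The hatched cell 14, left out by the threshold, had GATA4 at 242 RPKM, SOX17 at 201 RPKM and GATA3 at 0.0156 RPKM. PDGFRA, APOB and CER1 were listed at 0 in that cell as well, so their low levels in members do not tell the lineages apart. Summed cumulus cell markers reached 15.8 RPKM in 1 late cell at most and summed fibroblast and blood markers 20.1 RPKM in 1 hatched cell at most. Summed oocyte markers were higher, at up to 148 RPKM in late cells and at a median of 74.2 RPKM in hatched cells. Of 14 oocyte markers, 12 were under 1 RPKM in all members. OOEP passed 1 RPKM in 3 late and 6 hatched cells, at up to 143 and 119 RPKM, and KHDC3L reached 37.6 RPKM in hatched 16.

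Among genes of the pluripotency programme, POU5F1 was higher in late than in hatched members, at levels far under those of the other late cells. POU5F1, the OCT4 factor, was at 31.0, 0, 30.7, 87.2 and 14.4 RPKM in the late cells. Hatched cells had 0.489, 0.735 and 10.7 RPKM of POU5F1 (lowest, median and highest), and the difference was -3.43. All late cells but late 4 lay above all hatched cells. The other late cells of the letter had a POU5F1 median of 5353 RPKM, and the 11 outer cells of early and middle blastocysts had one of 3074 RPKM. DPPA2, a pluripotency-associated nuclear protein, differed by -3.10 on the strength of late 16 at 93.5 RPKM, and by -0.31 without that cell. ZFP42, the REX1 zinc finger protein, was at 31.9 RPKM in late 16 and 29.3 RPKM in late 22 and under 0.1 RPKM in the other 3 late cells. Its hatched median was 0.235 RPKM and its difference -2.60. DPPA3, a maternal factor that guards DNA methylation, was at 1.45 to 903 RPKM in late cells and at 1.71 to 392 RPKM in hatched cells, with a difference of -0.62 that was 1.13 without late 4. The other late cells had medians of 0.253 RPKM for ZFP42 and 972 RPKM for DPPA3. Of 5 measured epiblast markers, 0 were higher and 3 (60.0%, against 17.2% of all measured genes) were lower in hatched cells, with a median of -2.60 (-2.83 after rescaling by size factors). Without late 16, 2 of 4 measured were lower, and ZFP42 rests on 2 late cells, with a difference of 0.22 between the medians of the cells. The lower genes POU5F1, DPPA2 and ZFP42 were measured only through the late cells, so they could only be called lower.

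Other trophectoderm factors went both ways. Of 26 measured, 6 (23.1%, against 35.6% of all measured genes) were higher and 8 (30.8%, against 17.2%) lower. The median difference was -0.28, and 4 were higher and 13 lower of 25 after rescaling. Without late 4, 5 were lower. PPARG, the lipid-sensing nuclear receptor needed for placenta formation in the mouse, was at 0 to 0.0956 RPKM in late cells. Hatched cells had 0.113, 34.7 and 108 RPKM of PPARG, with hatched 2 the lowest, and the difference was 5.59. The groups did not overlap, but hatched 2 lay beside the late cells at 0.113 RPKM. GRHL2, an epithelial junction factor, was at or under 0.0602 RPKM in late cells and at 0.0113 to 20.7 RPKM in hatched cells, a difference of 2.89. OVOL1, which takes trophoblast progenitors out of the cell cycle, was at 12.2, 0, 0, 90.6 and 123 RPKM in late cells against a highest hatched value of 7.06 RPKM, a difference of -4.15. KLF6, a zinc finger factor, was at 74.0, 56.2, 12.2, 0.255 and 51.2 RPKM in late cells and at most at 10.5 RPKM in hatched cells. All late cells but late 22 lay above all hatched cells, and the difference was -2.94.

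Genes of the BMP pathway also split, with ID2 and BAMBI lower and the receptors ACVR1 and BMPR2 higher in hatched cells. ID2, a direct BMP target that holds back differentiation, was at 146, 129, 33.4, 77.0 and 131 RPKM in late cells. Hatched cells had 0, 3.38 and 46.9 RPKM of ID2, so only 2 hatched cells reached the lowest late cell, late 16, and the difference was -2.83. BAMBI, a decoy receptor of the pathway, was at 936 RPKM in late 4 and 122 RPKM in late 27 but under 0.3 RPKM in late 3 and late 16, and its difference of -4.01 was -1.48 without late 4. The receptors ACVR1 and BMPR2 were higher in hatched cells, by 3.08 and 2.48, at levels up to 21.9 and 22.7 RPKM. In late cells they exceeded 1 RPKM in 0 and 1 of 5 cells. Both receptors were measured only through the hatched cells, so they could only be called higher. Of 11 measured genes of the BMP, TGF-beta and Nodal pathways, 5 (45.5%, against 35.6% of all measured genes) were higher and 4 (36.4%, against 17.2%) lower.

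**Figure D3:**
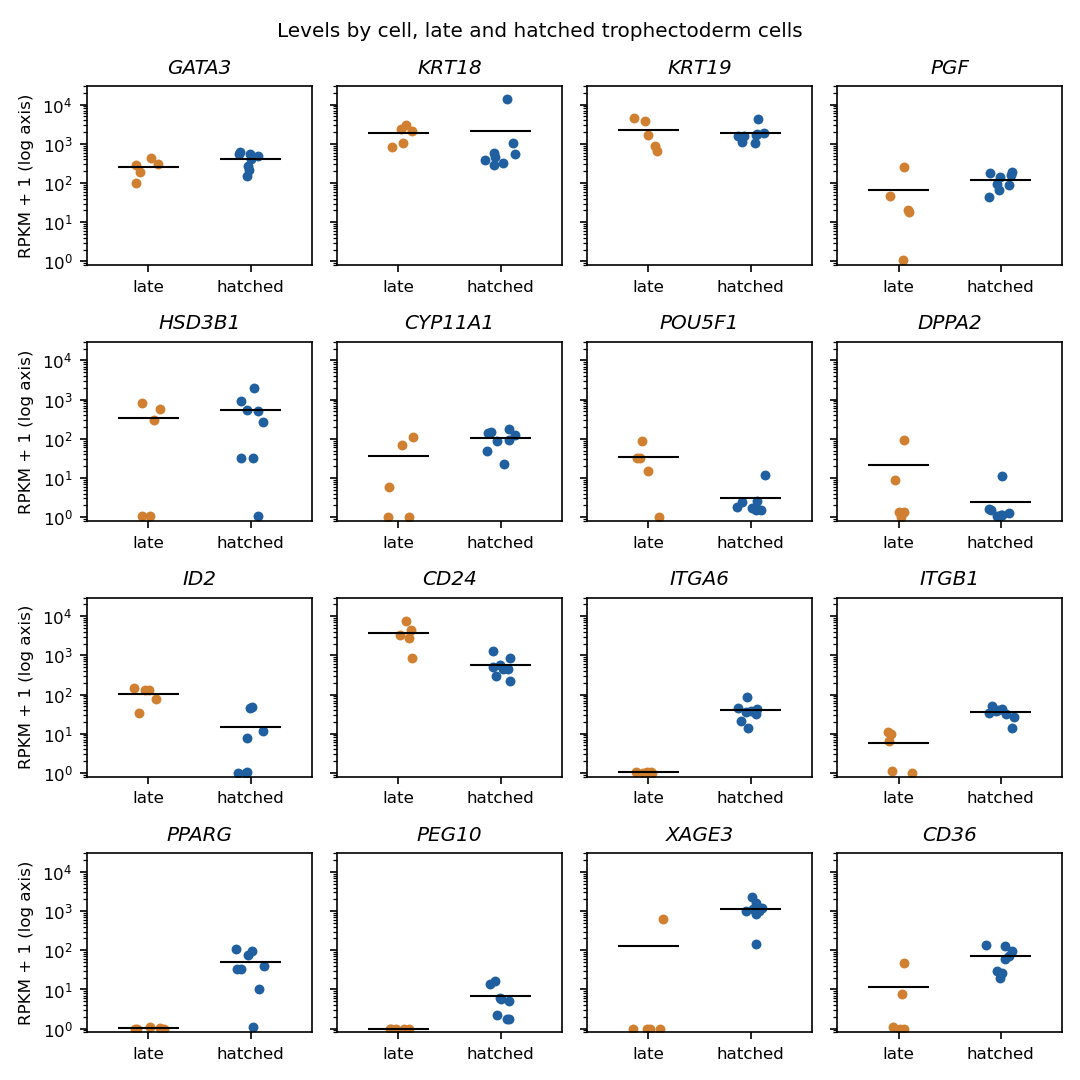
RPKM + 1 on a log axis for 16 genes in the 5 late and 8 hatched trophectoderm cells, 1 point per cell, with a bar at each mean. GATA3, KRT18 and KRT19 overlap between the groups, POU5F1, ID2 and CD24 lie higher in late cells, and ITGA6, ITGB1, PPARG, PEG10, XAGE3 and CD36 lie higher in hatched cells.

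The epithelial genes that define the tissue differed little as a list. Of 22 measured keratin and adhesion genes, 2 (9.1%, against 35.6% of all measured genes) were higher and 2 (9.1%, against 17.2%) lower. The median difference was -0.02, while rescaling left 1 higher and 7 lower. KRT18, the main trophectoderm keratin, was at 2462, 3101, 2108, 847 and 1075 RPKM in late cells, and hatched cells had a lowest value of 291, a median of 513 and a highest of 13571 RPKM. The highest value came from hatched 2, which also held the highest KRT8, at 4460 RPKM against a hatched median of 344 RPKM and 571 to 1104 RPKM in late cells. The means of KRT18 and KRT8 therefore differed by only 0.17 and 0.42, and by -1.86 and -0.46 without hatched 2, and 6 of 8 hatched cells lay under the lowest late cell for KRT18. KRT19 was at 654 to 4583 RPKM in late and 1022 to 4252 RPKM in hatched cells. KRT7, common in later trophoblast, was at 1 RPKM or more in 2 late and 5 hatched cells, with a difference of 1.08 that was 0.13 without hatched 16 and 2.99 without late 22. In the outer cells of early and middle blastocysts the medians of KRT8 and KRT18 were 8276 and 11412 RPKM.

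Among the junction genes, 3 claudins were lower on average in hatched cells and a cadherin was higher. CLDN4 was at 444, 707, 160, 189 and 284 RPKM in late cells and at 43.6, 171 and 406 RPKM in hatched cells, a difference of -0.80 that was -1.02 without hatched 11. CLDN3 was at 353, 150, 0.525, 0.645 and 395 RPKM in late cells and at 8.18 to 88.0 RPKM in hatched cells. It was thus either above or below the whole hatched range, and its difference was -1.99. CLDN7 differed by -1.55 at low levels, up to 32.3 RPKM in late 4, and by -0.88 without that cell. CDH3, placental cadherin, was at 7.03 to 44.8 RPKM in hatched cells and passed 1 RPKM in 2 of 5 late cells, a difference of 2.33 (3.84 without late 16). ATP1B1, a subunit of the sodium pump that drives cavity filling, passed 1 RPKM in 2 late and 5 hatched cells and differed by -0.35, with -1.60 to 1.35 when 1 cell was left out (without hatched 5 and without late 4).

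Surface genes of attachment and invasion went both ways. Of 14 measured, 7 (50.0%, against 35.6% of all measured genes) were higher and 3 (21.4%, against 17.2%) were lower, at a median difference of 1.44, but rescaling left 5 higher and 4 lower of 12 with a median of -0.05. ITGA6, the laminin-binding integrin chain, was at or under 0.0566 RPKM in the late cells and at 12.8, 36.2 and 87.9 RPKM in hatched cells, with no overlap and a difference of 5.29. ITGB1, its partner chain, was at 5.70, 0, 8.70, 9.96 and 0.0987 RPKM in late cells and at 12.6 to 51.2 RPKM in hatched cells, also with no overlap, a difference of 2.58 (4.89 ± 4.68 against 34.1 ± 11.5 RPKM, mean ± SD over cells). Both chains were present in the other late cells, at medians of 15.2 and 44.9 RPKM. LGALS3, a galectin, and EGFR, the epidermal growth factor receptor, were listed at 0 in all late cells, and 4 and 2 hatched cells passed 1 RPKM. Hatched 2 held the highest of both, 106 and 36.6 RPKM. ITGA6, ITGB1, LGALS3 and EGFR were measured only through the hatched cells, so they could only be called higher. CD24, a sialylated surface glycoprotein, went the other way, at 4370, 3301, 7530, 868 and 2722 RPKM in late cells against 223, 471 and 1311 RPKM in hatched cells. Only the highest hatched cell reached the lowest late cell, late 22, and the difference was -2.70 (3758 ± 2462 against 578 ± 352 RPKM, mean ± SD over cells). CD24 was 120 RPKM at the median of the other late cells.

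Lysosomal and protease genes included some of the lower genes. CTSH, a cathepsin, was at 574, 362, 181, 170 and 1141 RPKM in late cells and at 0, 61.2 and 86.7 RPKM in hatched cells, without overlap, a difference of -3.22. FUCA1, lysosomal fucosidase, was at 378 to 804 RPKM in late cells and 2.69 to 153 RPKM in hatched cells, again without overlap, a difference of -2.68. CTSB, another cathepsin, varied from 0.318 RPKM in late 16 to 1381 RPKM in late 4 and overlapped with the hatched range of 12.2 to 128 RPKM. Its difference was -3.06. The membrane proteases MMP15 and ADAM10 were higher in hatched cells, by 3.57 and 2.87, at up to 34.3 and 85.9 RPKM. Of 21 measured proteases and inhibitors, 4 were higher and 5 lower (3 lower without late 27).

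Actin-linked genes were lower more often than higher by their group means. Of 32 measured, 3 (9.4%, against 35.6% of all measured genes) were higher and 10 (31.2%, against 17.2%) were lower, at a median difference of -0.26 (1 and 14 of 31 after rescaling, median -0.89). Without late 4, 6 of 31 were lower, and without late 3 or late 22, 5 were higher. By the median of the cells, 4 were higher and 5 lower of 28, beside 3053 and 509 of 5165 measured genes. The mean of log2 values gave 5 and 5 of 32, beside 3714 and 540 of 6842. ACTB, cytoplasmic actin, was at 15661, 18844, 16350, 9987 and 18361 RPKM in late cells and at 5159 to 9413 RPKM in hatched cells, without overlap, a difference of -1.16. CAPG, an actin-capping protein, was at 93.0 to 191 RPKM against 0 to 88.9 RPKM, also without overlap, a difference of -2.08. S100A6, a calcium-binding protein, was at 9278, 5703, 2568, 6026 and 4372 RPKM in late cells and at 257, 1807 and 2854 RPKM in hatched cells, with a difference of -1.69. Late 16 alone lay within the hatched range of S100A6. MARCKS, a membrane protein that binds actin and phospholipids, was at 651, 916, 52.1, 224 and 316 RPKM in late cells and at 0.0321, 9.01 and 48.6 RPKM in hatched cells. That was the lowest difference among genes without overlap, -4.95. MSN, moesin, was higher in hatched cells by 3.32 and passed 1 RPKM in late 22 alone among the late cells. TAGLN, transgelin, rested on late 3, at 151 RPKM, since its difference of -4.97 was -0.06 without that cell.

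Other genes among the 12 lowest without overlap were as follows. IFITM1, an interferon-induced membrane protein, was at 13.3, 95.8, 141, 16.5 and 324 RPKM in late cells and at 1.78 to 12.1 RPKM in hatched cells, a difference of -4.14. The other late cells had an IFITM1 median of 1277 RPKM. DNMT3A, a de novo DNA methyltransferase, was at 24.8 to 54.9 RPKM in late and 0.919 to 16.6 RPKM in hatched cells, a difference of -1.82. SLC39A11, a zinc carrier, differed by -2.74 (19.1 to 132 against 0 to 18.7 RPKM), and the late 3 value lay just above the hatched range. The zinc finger gene ZNF85 differed by -2.56, GLIPR2 by -2.29, ANKRD10 by -2.21 and SIN3B, a corepressor scaffold, by -1.83. CDK19, a Mediator kinase, differed by -4.05 because late 4 had 77.7 RPKM, and by -0.04 without late 4.

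Some steroid and hormone genes were present in some of the late members, and their levels varied from cell to cell. HSD3B1, which makes progesterone, was at 292, 0.0969, 580, 805 and 0.0380 RPKM in late cells and at 0.0400, 384 and 1964 RPKM in hatched cells, a difference of 0.66 (1.28 without late 22). It was under 1 RPKM in 2 of 5 late and 1 of 8 hatched cells, and at most at 0.659 RPKM in the other late cells. CYP11A1, the side-chain cleavage enzyme that opens steroid synthesis, was at 4.81, 0, 0, 109 and 68.2 RPKM in late cells and at 22.0, 109 and 176 RPKM in hatched cells, a difference of 1.50 (2.46 without late 22). FDXR, the reductase that feeds electrons into mitochondrial steroid synthesis, was higher by 2.15 (3.54 without late 22) but passed 1 RPKM in only 5 of 8 hatched cells. CYP19A1, aromatase, was seen above 1 RPKM in hatched 2 alone, at 4.83 RPKM. PTGES, a prostaglandin E synthase, was at 32.1, 4.39, 2.09, 300 and 182 RPKM in late cells and at 0 to 76.4 RPKM in hatched cells, a difference of -1.98 (-1.07 without late 22). PTGES2, another synthase of that prostaglandin, was at 22.9 to 105 RPKM in hatched cells and differed by 1.88. The list of 13 measured enzymes had 3 higher (23.1%, against 35.6% of all measured genes) and 1 lower (7.7%, against 17.2%). Its median was 0.15, rescaling gave 3 and 4, and 6 were higher without late 4.

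PGF, placental growth factor, was at 46.5, 17.1, 0.0566, 251 and 20.1 RPKM in late cells and at 43.8, 119 and 192 RPKM in hatched cells, a difference of 0.85 (2.48 without late 22). CGA, the alpha chain of chorionic gonadotropin, was listed at 0 in all 13 members. CGB, the beta chain, reached 45.7 RPKM in hatched 15 and 4.17 RPKM in hatched 11, and at most 0.135 RPKM in late cells. It belongs to a family of near-identical copies, so its reads may be split. LEP, leptin, was highest in late 16, at 380 RPKM, and its difference of -2.13 was 1.82 without that cell. ADM, adrenomedullin, was at 430 RPKM in late 27, under 0.2 RPKM in the other late cells and at most at 0.0469 RPKM in hatched cells. Its difference of -6.44 was -0.07 without late 27.

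XAGE3, a placenta-expressed member of a cancer-testis family with similar copies, was present in all 8 hatched cells and in 1 late cell. It was at 0 in late 3, 4, 16 and 27 and at 643.5 RPKM in late 22. Hatched cells had 145.5, 1086 and 2310 RPKM of XAGE3, with a difference of 3.17 (10.18 without late 22), so late 22 sat inside the hatched range and the other 4 late cells far below it. The other late cells had at most 4.30 RPKM. CD36, a fatty acid transporter, followed the same layout, at 0, 0, 0.103, 46.3 and 6.55 RPKM in late cells and 18.5, 64.6 and 134 RPKM in hatched cells, with a difference of 2.61 (4.73 without late 22) and at most 0.106 RPKM in the other late cells. PKIB, an inhibitor of protein kinase A, was at 186 to 338 RPKM in 4 late cells, at 0.550 RPKM in late 4 and at 0.0750 to 133 RPKM in hatched cells, a difference of -1.74. ANXA1 was found in hatched 2 alone, at 130 RPKM, and CAPN6 in hatched 15 and 20, at 11.0 and 32.1 RPKM. The apolipoproteins APOC3 and APOA1 were highest in late 27, at 3369 and 223 RPKM, and their differences of -4.78 and -2.52 were -0.10 and 1.52 without it.

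Among the late cells, late 22 was most like the hatched cells. Its median Spearman rho with the 8 hatched cells over the measured genes was 0.535, against 0.380 for late 4 and 0.445 to 0.489 for late 3, 16 and 27. Late 22 also had the most genes at 1 RPKM or more and late 4 the fewest, and rho across genes moves with detection. Pairs of hatched cells had a median rho of 0.621, pairs of late cells one of 0.460, and pairs of a late and a hatched cell one of 0.462. With the 10 other late cells of the letter, late members had a median rho of 0.448. Over all genes of the table, shared zeros included, no member had a rho above 0.824 with any of the 95 cells. That value is not on the scale of those above, and it means that no member held the same values as another cell.

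Of 13 measured imprinted and placental growth genes, 8 (61.5%, against 35.6% of all measured genes) were higher and 2 (15.4%, against 17.2%) were lower. The median difference was 1.79, and rescaling left 5 higher and 3 lower of 11, with a median of 0.49. PEG10, ZFAT, SGCE, IGF2 and DLK1 were measured only through the hatched cells, so they could only be called higher. PEG10, a retrotransposon-derived gene that the mouse placenta needs, was listed at 0 in all 5 late cells and was at 0.712, 4.48 and 15.7 RPKM in hatched cells. ZFAT, a zinc finger gene imprinted in the placenta, was at 0 to 3.29 RPKM in late cells and at 3.65, 24.6 and 218 RPKM in hatched cells. The groups did not overlap for either gene, although their nearest cells lay within 1 RPKM of each other, and ZFAT differed by 4.54. In the other late cells PEG10 was at most at 0.0880 RPKM and ZFAT at most at 0.0499 RPKM. SGCE, imprinted beside PEG10, was listed at 0 in all late and all other late cells and passed 1 RPKM in 5 of 8 hatched cells, with a highest value of 33.7 RPKM. IGF2, the fetal growth factor, was at 270 RPKM in hatched 11 and 25.3 RPKM in hatched 15 and at or near 0 elsewhere. DLK1 was at 62.4 RPKM in hatched 6 alone. DNMT3A, given above, is on this list and was lower without overlap.

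For G2/M, 9 of 24 measured genes were higher (37.5%, close to the 35.6% of all measured genes) and 0 lower, at a median of 0.80. Rescaling gave 6 higher and 3 lower of 23 with a median of -0.07, and leaving out the hatched cells deeper than every late cell gave 5 and 4 of 23 with a median of 0.05. Without late 4 the higher genes of this list numbered 18 of 24. By the median of the cells, 20 of 23 were higher and 0 lower, beside 3053 higher of 5165 measured genes. The mean of log2 values gave 19 higher of 24, beside 3714 of 6842. The G2/M share thus depended on how the cells were averaged. TTK, a spindle checkpoint kinase, was at or under 0.0209 RPKM in late cells and at 1.36, 20.9 and 48.6 RPKM in hatched cells, with no overlap and a difference of 4.57. CDK1, the mitotic kinase, was at 57.0, 0.132, 21.7, 70.2 and 0.310 RPKM in late cells and at 0.590, 205 and 288 RPKM in hatched cells, a difference of 2.47. CCNB2, a mitotic cyclin, passed 1 RPKM in 2 late and 5 hatched cells, and KIF20A, a kinesin of cell division, in 2 late and 8 hatched cells. Their differences were 2.54 (5.04 without late 22) and 3.58. CDKN3, a phosphatase that acts on cyclin-dependent kinases, was at or under 0.283 RPKM in late cells and at 0.468 to 263 RPKM in hatched cells, a difference of 6.63.

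Of 21 measured S phase genes, 6 (28.6%, under the 35.6% of all measured genes) were higher and 3 (14.3%, against 17.2%) lower. FEN1, the flap nuclease of DNA replication, was at or under 0.0538 RPKM in late cells and at 35.4, 57.5 and 119 RPKM in hatched cells, a difference of 6.06 without overlap. CCNE1, the cyclin of S phase entry, was at 0, 5.72, 8.97, 71.3 and 0 RPKM in late cells and at 23.3, 131 and 658 RPKM in hatched cells. Late 22 alone reached into the hatched range of CCNE1, and the difference was 3.44 (5.41 without late 22). POLA1, a replicative polymerase, was higher by 2.32 while GINS2, a helicase subunit, differed by -1.96 (-1.03 without late 27). GINS2 ran from 0.0436 RPKM in late 3 to 844 RPKM in late 27.

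Immediate early genes held opposite moves. MYC, a growth-promoting factor, was at 4.02, 22.4, 0.329, 10.6 and 41.5 RPKM in late cells and at 3.96, 127 and 274 RPKM in hatched cells, a difference of 2.98. Hatched 11 was the lowest for MYC and lay within the late range. DUSP1, a phosphatase of stress kinases, was at 122 RPKM in late 3 and 276 RPKM in late 4 and under 0.1 RPKM in the other 3 late cells, against a hatched highest of 16.8 RPKM, a difference of -4.69. SGK1, a kinase that regulates ion transport, was at 37.7 to 278 RPKM in late cells and at 0 to 98.6 RPKM in hatched cells, a difference of -2.10. IER5 was higher by 3.62, with 4 hatched cells above 1 RPKM.

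Of 48 measured genes of oxidative phosphorylation, 12 (25.0%, under the 35.6% of all measured genes) were higher and 2 (4.2%, against 17.2%) lower. The median difference was 0.48 beside 0.39 for all genes, and rescaling gave 6 higher and 8 lower. Without late 22 the higher genes of this list numbered 22. UQCRC2, a core protein of complex III, was at 72.9, 38.7, 59.5, 15.6 and 72.1 RPKM in late cells and at 112, 148 and 310 RPKM in hatched cells, without overlap, a difference of 1.74. ATP5F1, an ATP synthase subunit, also did not overlap, at 3.60 to 699 RPKM against 737 to 1501 RPKM, and its difference of 1.17 was 0.85 without late 4. The complex I subunit NDUFS3 was at 93.1 RPKM in late 22, under 0.6 RPKM in the other late cells and at 123 to 357 RPKM in hatched cells, a difference of 3.41 (7.38 without late 22). COX7B differed by 1.86, and its highest late cell (444 RPKM) lay just under its lowest hatched cell (456 RPKM). SDHA, a subunit of complex II, differed by 1.98 with overlap (3.44 without late 3).

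LDHA, which makes lactate, was at 358, 0.0384, 369, 88.6 and 266 RPKM in late cells and at 396, 790 and 1475 RPKM in hatched cells, without overlap, a difference of 1.97. HIF1A, the hypoxia-response factor, was at 82.2, 34.1, 14.6, 12.3 and 21.4 RPKM in late cells and at 42.3, 142 and 287 RPKM in hatched cells. Only late 3 reached into the hatched range of HIF1A, and the difference was 2.03. EGLN3 and P4HA1, both hydroxylases induced in hypoxia, differed by 4.55 and 3.14 and passed 1 RPKM in 0 and 1 late cells. Of 23 measured genes of hypoxia and glycolysis, 6 (26.1%, against 35.6% of all measured genes) were higher and 3 (13.0%, against 17.2%) lower.

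Metallothioneins, small zinc-binding proteins, were low in the late members, where the highest mean of any in the table was that of MT2A, 7.31 ± 13.9 RPKM against 42.6 ± 53.2 RPKM in hatched cells (mean ± SD over cells). MT2A differed by 2.39 (4.38 without late 3). MT1E was at 0, 0, 0.202, 1.16 and 6.31 RPKM in late cells and at 37.5, 137 and 542 RPKM in hatched cells, without overlap, a difference of 6.13. The other late cells had an MT1E median of 290 RPKM and the outer early and middle blastocyst cells one of 565 RPKM. MT1M differed by 4.00 (1.76 without hatched 15), since it reached 190 RPKM in hatched 15 and at most 2.29 RPKM in late cells, against medians of 601 RPKM in the other late cells and 1274 RPKM in the outer cells. MT1X rested on hatched 2, at 51.6 RPKM, since its difference of 2.87 was 0.10 without that cell. SLC30A1, a zinc exporter, was higher by 3.57 and passed 1 RPKM in 3 hatched cells and 1 late cell. Of 9 measured metal-handling genes, 6 (66.7%, against 35.6% of all measured genes) were higher and 1 (11.1%, against 17.2%) lower. The median difference was 2.39 (1.26 after rescaling). The lower one was FTH1, the ferritin heavy chain that stores iron, at 40940 ± 23414 RPKM in late and 12985 ± 6500 RPKM in hatched cells, a difference of -1.66. MT1E, MT1M, MT1X and SLC30A1 were measured only through the hatched cells, so they could only be called higher. Metallothionein genes are similar in sequence, so reads may be split among them.

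Among carriers, ABCG2, an efflux pump of the placenta, was at 16.6 RPKM in late 3, at 0 in the other late cells and at 0.0155, 20.7 and 50.5 RPKM in hatched cells, a difference of 2.49 (4.60 without late 3). SLC6A8, the creatine carrier, was higher by 2.80. SLC34A2, a phosphate carrier, differed by -3.04, with late 4 at 82.4 RPKM and late 22 at 20.8 RPKM, and by -1.29 without late 4. SLC7A4 was found in late 3 alone, at 47.8 RPKM, and its difference of -3.39 was 0.00 without it. Of 26 measured carriers, 7 (26.9%, against 35.6% of all measured genes) were higher and 5 (19.2%, against 17.2%) lower. Without late 4, 12 were higher.

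Interferon and antigen presentation genes did not move together. IFI6 was at 0, 0, 318, 143 and 702 RPKM in late cells and at 2.45 to 240 RPKM in hatched cells, and IRF7 passed 1 RPKM in late 16 and late 22 alone, at 14.7 and 44.4 RPKM. Their differences were -2.24 (-1.23 without late 27 and -3.41 without hatched 11) and -3.67 (-2.22 without late 22). PSMB9, an immunoproteasome subunit, was listed at 0 in all late cells and passed 1 RPKM in 4 hatched cells, with a highest value of 88.9 RPKM. MAMU-DRB1, a class II antigen presentation gene with many close relatives in the macaque, was listed at 0 in all late cells and was at 3.31, 49.0 and 175 RPKM in hatched cells. Of 9 measured genes on the list, 2 (22.2%, against 35.6% of all measured genes) were higher and 3 (33.3%, against 17.2%) lower.

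Other genes of the 12 largest higher differences without overlap were as follows. NGDN, a translation regulator, differed by 6.84 and MRPS33, of the mitochondrial ribosome, by 6.52. VPS25, of the endosomal sorting complex, differed by 6.46, ZFAND2A by 6.36, BCAS2, of the spliceosome, by 6.27 and DIMT1, a ribosomal RNA methylase, by 6.25. CD200, an immune-regulatory surface protein, differed by 6.16 and COPS4, of the signalosome, by 5.94. All 8 genes were under 1 RPKM in every late cell, except DIMT1 at 3.96 RPKM in late 4. The medians of DIMT1, NGDN, VPS25 and BCAS2 in the other late cells were 37.1, 12.2, 10.6 and 5.49 RPKM, while those of MRPS33, ZFAND2A, CD200 and COPS4 were under 1 RPKM. COPS4 in hatched 20 lay at 0.998 RPKM, beside late 22 at 0.996 RPKM.

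**Figure D4:**
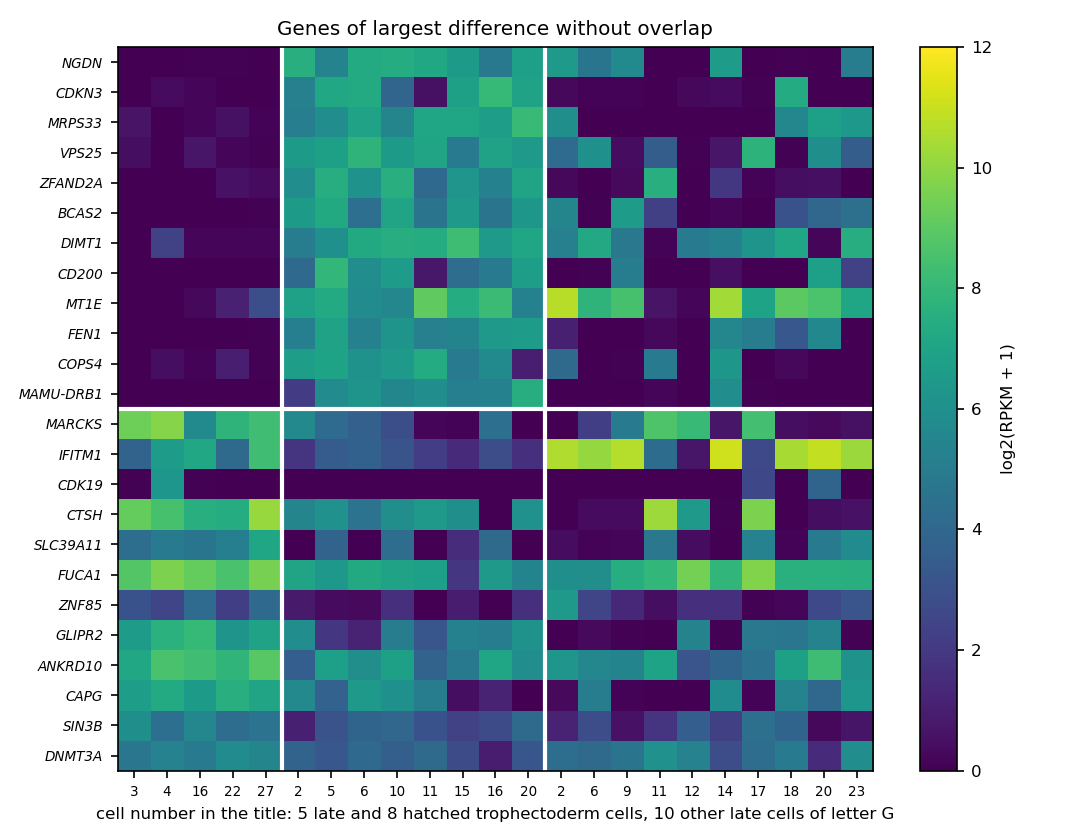
log2(RPKM + 1) of the 12 genes of largest difference without overlap in each direction, in 5 late and 8 hatched trophectoderm cells and in the 10 other late cells of letter G. The upper 12 genes are near 0 in the late members and present in the hatched ones, and several, such as MT1E, are present in the other late cells too; the lower 12 are present in late members, with CDK19 in late 4 alone.

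Very abundant transcripts of the protein-making machinery split without overlap. TPT1, a translation-associated tumour protein, was at 16187 to 28632 RPKM in late cells and at 4891 to 9432 RPKM in hatched cells, a difference of -1.70. RPS12 was at 17365 to 37285 RPKM against 4079 to 12340 RPKM, a difference of -1.50, and RPL12 differed by -1.74. RPL24, RPL7A and RPL35 went the other way, with RPL24 at 814 to 1434 RPKM in late and 1934 to 3298 RPKM in hatched cells and differences of 1.19, 1.10 and 1.01. Without late 4, RPL7A and RPL35 stood at 0.95 and 0.85. Of 77 measured ribosomal protein genes, 10 (13.0%, against 35.6% of all measured genes) were higher and 12 (15.6%, against 17.2%) lower. Rescaling gave 3 and 19. These genes have many near-identical processed copies, so their values are uncertain.

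Cell-to-cell spread was wide in both groups. Over the 1207 genes with a mean of 50 RPKM or more in both, the median SD of log2(RPKM + 1) within a group was 1.49. S100A14, a calcium-binding protein of epithelia, had the widest, 4.70, with 787, 1055, 202, 0 and 1.62 RPKM in late cells. In hatched cells it was at 288 to 728 RPKM in hatched 2, 5, 6 and 10 and under 0.2 RPKM in the other 4. HSD3B1 followed at 4.24, then PPIL3 at 3.76, RPL26L1 at 3.73, DDIT4 at 3.61 and B2M, the light chain of class I antigen presentation, at 3.55. CDCA3, POLR2K, PTGR1 and CLNS1A had SDs of 3.50, 3.41, 3.38 and 3.34. None of these 10 genes separated the groups, and DDIT4, a stress-induced inhibitor of growth signalling, and RPL26L1 were past 2-fold, at -1.30 and -1.05. Leaving out 1 cell moved DDIT4 from -2.46 (without hatched 2) to -0.42 (without late 4) and RPL26L1 to -0.34 (without late 27). It also took S100A14 (-1.29 without hatched 2), B2M (1.16) and POLR2K (1.48, both without late 27) and PTGR1 (-1.19 without hatched 16, 1.10 without late 4) past 2-fold.

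**Figure D5:**
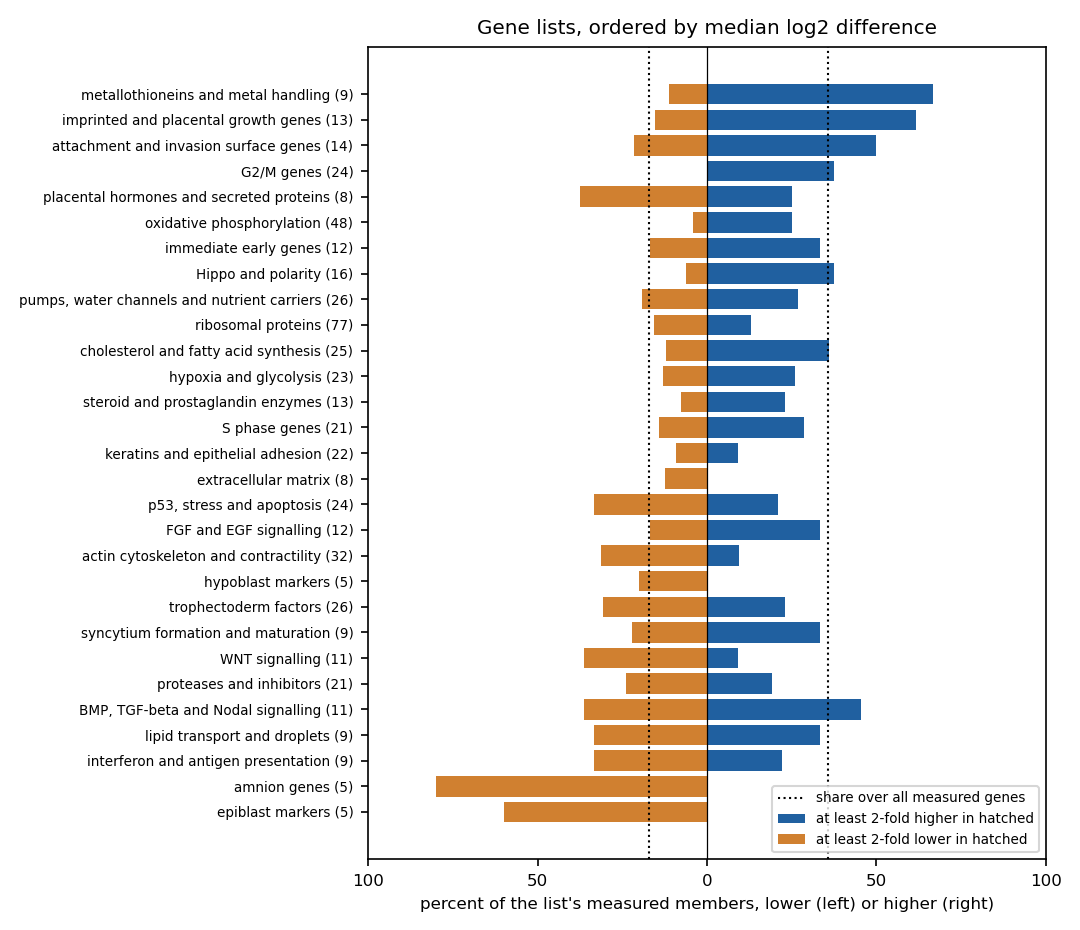
Percent of each gene list's measured members at least 2-fold higher (right, blue) or lower (left, orange) in hatched cells, with the number measured in brackets, for lists of 5 or more. Dotted lines mark the shares over all measured genes, 35.6% and 17.2%; lists are ordered by their median difference, from epiblast markers (-2.60) to metallothioneins and metal handling (2.39).

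Other lists had these counts, to be read beside 35.6% higher and 17.2% lower over all measured genes. Hippo and polarity had 6 higher (37.5%, near the share of all genes) and 1 lower (6.2%) of 16 measured genes. Of 24 genes of p53, stress and apoptosis, 5 (20.8%) were higher and 8 (33.3%) lower. Of 25 genes of cholesterol and fatty acid synthesis, 9 (36.0%, near the share of all genes) were higher and 3 (12.0%) lower. WNT signalling had 1 higher and 4 lower of 11, FGF and EGF signalling 4 and 2 of 12, extracellular matrix 0 and 1 of 8, and amnion genes 0 and 4 of 5. Placental hormones and secreted proteins had 2 higher (25.0%) and 3 lower (37.5%) of 8, and syncytium genes 3 (33.3%) and 2 (22.2%) of 9. Lipid transport had 3 higher (33.3%) and 3 lower (33.3%) of 9. Immediate early genes had 4 higher (33.3%) and 2 lower (16.7%) of 12, and hypoblast markers 0 and 1 (20.0%) of 5.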

How the data were processed

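Values were deposited by the authors as 1 table of 16049 gene symbols by 95 cells. Its unit is not named; the deposited values were read as RPKM, since they are not whole and low values are multiples of a gene factor times a cell factor. FastQC, TopHat2 version 2.1.0, HTSeq and DESeq2 appear among the tools, per the submitters' processing notes; build and annotation are not given in the sources used here. Libraries came from PCR-amplified complementary DNA read as single ends, per the labels' protocols, which mention no molecular identifiers. Values above 0 but under 1 RPKM can stand for a few reads.

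From these, group means of RPKM were compared on the log2(RPKM + 1) scale with Python version 3.11.15, numpy and pandas, with GATA2 left out, leaving 16048 genes. Reads were recovered for 11141 genes (69.4%), with a tolerance of 0.05 for a whole read; genes were kept because their values were whole, so this is no separate check. Precision is limited by 5 and 8 cells that may share embryos. Named genes were the 12 largest differences without overlap each way, up to 4 members of a list with the largest differences, a set of trophectoderm genes, and the 10 widest spreads. A few more genes without overlap or of the metal-handling list were chosen after their values were seen. They were MT2A, FTH1, ITGB1, PEG10, ACTB, TPT1, RPS12, UQCRC2, ATP5F1, RPL24, RPL35 and RPL7A. So were, as lineage checks, NANOG, SOX2, NODAL, PRDM14, GATA4, SOX17, PDGFRA, FOXA2, HHEX, HNF4A, APOB and CER1. The members and the 33 lists were chosen with earlier results of these data known. A list of Y-linked genes and XIST had 0 symbols in the table, and the oocyte, cumulus, fibroblast and blood lists had 2 measured genes in all. The calculation was run on simulated cells with large known changes, as a check of the code. Those cells had no difference in detection between groups, so that run does not bear on the calls made here.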

Additional observations from a re-analysis of the deposited data

Results flagged for a closer look

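In 134 of the named genes, taken in each group, 1 cell stood far from the others of its group in 59 of 268 cases. The measure was Dixon's ratio on log2(RPKM + 1), which chance would flag in about 1 in 20 groups of genes not chosen for their values. These genes were chosen for large differences or wide spread, and many ratios come from a value near 0 beside cells at 0, so that rate is no measure here.

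Hatched 2 stood high in KRT18 at 13571 RPKM, ANXA1 at 130, MT1X at 51.6, CDX2 at 9.43, CYP19A1 at 4.83 and ADM at 0.0469 RPKM, and low in MAMU-DRB1 at 3.31 and CDCA3 at 0.0640 RPKM. Hatched 15 stood high in CGB at 45.7, DPPA2 at 10.1 and SLC7A4 at 0.0769 RPKM, and low in VPS25 at 28.4, FUCA1 at 2.69 and PKIB at 0.0750 RPKM. Hatched 16 stood high in KRT19 at 4252 RPKM and low in XAGE3 at 145.5, DNMT3A at 0.919, POLR2K at 0.0528 and CTSH at 0 RPKM. Hatched 20 stood low in COPS4 at 0.998, CDK1 at 0.590 and TFAP2A at 0 RPKM. Hatched 11 stood low in MYC at 3.96, CLNS1A at 0.0946 and ABCG2 at 0.0155 RPKM. Hatched 5 stood high in DUSP1 at 16.8, POU5F1 at 10.7 and CDK19 at 0.00931 RPKM, hatched 6 in DLK1 at 62.4 RPKM, and hatched 10 in IRF7 at 0.0335 RPKM.

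Late 22 stood high in XAGE3 at 643.5 RPKM, NDUFS3 at 93.1, FDXR at 9.08, MSN at 8.13, SLC6A8 at 5.36, MT1X at 0.158, CAPN6 at 0.126 and TTK at 0.0209 RPKM. Late 4 stood high in CDK19 at 77.7, DIMT1 at 3.96, GRHL2 at 0.0602 and IER5 at 0.0337 RPKM, and low in ATP5F1 at 3.60, PKIB at 0.550 and LDHA at 0.0384 RPKM. Late 3 stood high in TAGLN at 151, SLC7A4 at 47.8, ABCG2 at 16.6, BMPR2 at 4.81, P4HA1 at 4.41, SLC30A1 at 1.65, EGLN3 at 0.549, ACVR1 at 0.473 and CYP19A1 at 0.0232 RPKM. Late 27 stood high in ADM at 430, CGB at 0.135, FEN1 at 0.0538, BCAS2 at 0.0494 and CD200 at 0.0291 RPKM.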

How the results depend on the processing

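Against 2436 higher and 1179 lower genes, a pseudocount of 10 RPKM gave 1271 and 605, a minimum mean of 20 RPKM gave 1129 and 694, size factors gave 1560 and 1991, and genes detected in most cells of both groups gave 232 and 311. The mean of log2 values gave 3714 and 540, and the median of the cells 3053 and 509. Leaving out 1 cell gave 2354 to 2751 higher and 1096 to 1249 lower genes. Against 194 higher and 24 lower genes without overlap, leaving out 1 cell gave 204 to 369 and 23 to 51. All 9 hatched cells of letter G, without the GATA2 threshold, gave 102 higher, genes detected in most cells 30 higher, size factors 51 lower, and hatched cells no deeper than the late ones 440 and 39. A margin of 1 RPKM between the groups left 143 and 22. Fewer or more cells change this count by construction; otherwise the cause was not tested. GATA2 thresholds of 20 and 100 RPKM chose the same cells, and no cell had under 4 megareads recovered, so that alternative gave nothing.

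Of the alternative values of single genes, 3016 moved by less than the spread between cells, 188 moved further and 12 changed the sign of a gene past 2-fold. Of the 134 genes followed, 24 were under 2-fold, and 18 of them took the other sign under some alternative. The sign of a gene past 2-fold changed with the median of the cells in LEP (0.57), APOC3 (0.90), APOA1 (1.05), SLC30A1 (-0.046) and ZFP42 (0.22), and with the mean of log2 values in CLDN3 (0.051) and RPL26L1 (0.15). Without the deeper hatched cells KRT7 stood at -0.03, and with all hatched cells of letter G APOA1 stood at 3.31. Leaving out 1 cell gave -2.76 to 1.82 for LEP (the highest without late 16), -2.86 to 1.52 for APOA1 (without late 27) and -3.68 to 0.004 for SLC7A4 (without late 3). For list counts, 1342 alternatives stayed within 1.5 times and 338 did not. The margin, the centring, the depth limit on hatched cells and the detection limit were chosen after seeing the data. No paired analysis was possible because no label pairs a late cell with a hatched cell.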
